A study of Mus musculus with 12 samples.

Results

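Prdm1, Tbx18, Trps1, Runx1, Runx3, Twist1, Twist2, Msx1 and Msx2 are transcription factors of the dermal papilla and follicle mesenchyme outside the Sox and Fox families. These 9 genes of the 25887 in the deposited tables were taken by name, not by a cutoff on their measured values, and each was found by its Ensembl identifier. Earlier results of these data were known when they were chosen. RNA was sequenced from dermal papilla cells sorted from mouse skin, in 12 libraries of 3 per group. The P28 Smo* group came from males carrying a dermal-papilla-specific Smo gain-of-function mutation (Smo*), sorted at postnatal day 28 with follicles in anagen I-III, the early growth phase. P28 WT were wild-type males of that day in anagen VI, when the growing follicle is fully formed. P20 Smo* and P20 WT were females of those genotypes at postnatal day 20, in telogen, the resting phase. All groups share the sort for dermal papilla cells, the ribosomal RNA depletion and the directional library kit. The driver that makes the mutation papilla-specific, the Smo allele itself, the strain and the sort markers are not given in the sources used here. The labels do not tie the 3 libraries of a group to separate animals. The p-values therefore reflect only how far these samples spread, and that spread may be technical. At P28 genotype and growth stage differ together, and between P28 and P20 age, sex and growth stage differ together, so their parts cannot be told apart.

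The dermal papilla is the cluster of mesenchymal cells at the base of each hair follicle that signals to the epithelium above it and takes part in starting each growth phase. Smoothened (Smo) is the membrane protein that passes on the Hedgehog signal, which ends in GLI transcription factors acting on their target genes. The 9 genes belong to several families: Prdm1 and Trps1 are zinc finger repressors, Tbx18 is a T-box factor, Runx1 and Runx3 bind DNA through a runt domain with the partner Cbfb, Twist1 and Twist2 are basic helix-loop-helix proteins that pair with E proteins on E-boxes, and Msx1 and Msx2 are homeobox proteins that often act downstream of BMP signals.

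Between P28 and P20 in WT, both Twist and both Msx genes changed. The promoters of 3 of them, those whose sequence lies wholly before the annotated transcript, are shown to compare members called in that contrast. Of these, Twist1 and Twist2 fell and Msx1 rose. Each is the 250 bases before the RefSeq start (GRCm38.p6), written 5′ to 3′ on the gene's strand. Capitals mark an E-box (CANNTG) or a CCAAT box (CCAAT), on either strand, and no capital stretch overlaps another. Twist1 is at chr12:33957421-33957670, Twist2 at chr1:91801211-91801460, both on the plus strand, and Msx1 is at chr5:37824586-37824835 on the minus strand.
Twist1: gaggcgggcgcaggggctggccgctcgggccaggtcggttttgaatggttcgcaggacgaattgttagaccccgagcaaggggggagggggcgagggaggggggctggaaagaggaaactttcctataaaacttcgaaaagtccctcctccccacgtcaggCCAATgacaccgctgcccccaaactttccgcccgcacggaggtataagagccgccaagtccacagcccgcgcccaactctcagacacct
Twist2: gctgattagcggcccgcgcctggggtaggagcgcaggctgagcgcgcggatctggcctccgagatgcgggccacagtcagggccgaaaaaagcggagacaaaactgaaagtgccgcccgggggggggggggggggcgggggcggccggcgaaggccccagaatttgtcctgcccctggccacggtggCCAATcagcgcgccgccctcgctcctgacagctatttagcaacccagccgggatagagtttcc
Msx1: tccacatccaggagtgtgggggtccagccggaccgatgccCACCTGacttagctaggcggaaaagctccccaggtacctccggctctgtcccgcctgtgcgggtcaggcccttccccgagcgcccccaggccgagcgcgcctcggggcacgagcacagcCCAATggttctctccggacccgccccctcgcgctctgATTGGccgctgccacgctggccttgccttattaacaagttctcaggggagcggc
Twist1 and Twist2 each held 1 CCAAT box and no E-box, and Msx1 held 1 E-box and 2 CCAAT boxes. Of 32851 RefSeq promoters cut to the same length, 66.2% held an E-box and 33.9% a CCAAT box. The CCAAT box was searched after the sequences had been read. RefSeq promoters were matched for 8 of the 9 members, all but Trps1, and Runx1 and Runx3 have 2 each. A GLI core (ACCACCC), which 3.92% of the promoters held, and the GC-rich SMAD motif GGCGCC, which 9.59% held, were in none of these 10 windows. The RUNX core TGTGGT, present in 14.0% of promoters, occurred 2 times in the upstream Runx3 promoter and in no other window. These matches are descriptions of letters in a short window.

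By the files' own depth, 36323058 to 48926831 reads fell on genes per library, and 11 libraries had reads on 17337 to 17926 genes. P28 Smo* replicate 3, with 15453 such genes, stood apart. Its summed level of 20 dermal papilla markers was 65977 normalized counts, and the other P28 Smo* libraries had 247432 and 372981. The members' contrasts that use P28 Smo* are also given without it. The sums of these markers were 516490 to 602703 in P28 WT, 78148 to 107778 in P20 Smo* and 73489 to 93066 in P20 WT, and all 20 averaged at least 10 normalized counts in each group. Listed genes differed by genotype and age, so the sum does not stand for papilla cells alone. Hhip averaged 14013 in P20 Smo* and 1229 in P20 WT, and Notum 2153 and 7906. By estimate, 10 of the 20 were above WT in P20 Smo* and 10 below. Corin averaged 546 in P20 WT and 73141 in P28 WT. Gli1, a direct Hedgehog target, had 4270, 4435 and 4071 normalized counts in P28 Smo* and 1581, 1396 and 1484 in P28 WT, with 4443, 3665 and 5323 in P20 Smo* and 1277, 1022 and 2245 in P20 WT. The Hedgehog pathway genes Ptch1 and Hhip were not alike at P28. Ptch1 had 51732, 61548 and 29067 in P28 Smo* and 14470, 18532 and 15012 in P28 WT. Hhip overlapped there, with 33486, 49363 and 8915 in P28 Smo* and 36605, 42639 and 42843 in P28 WT. At P20 both were higher in every Smo* library than in every WT library. In bulk samples, fewer cells of a type and less RNA per cell cannot be told apart.

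**Figure D1:**
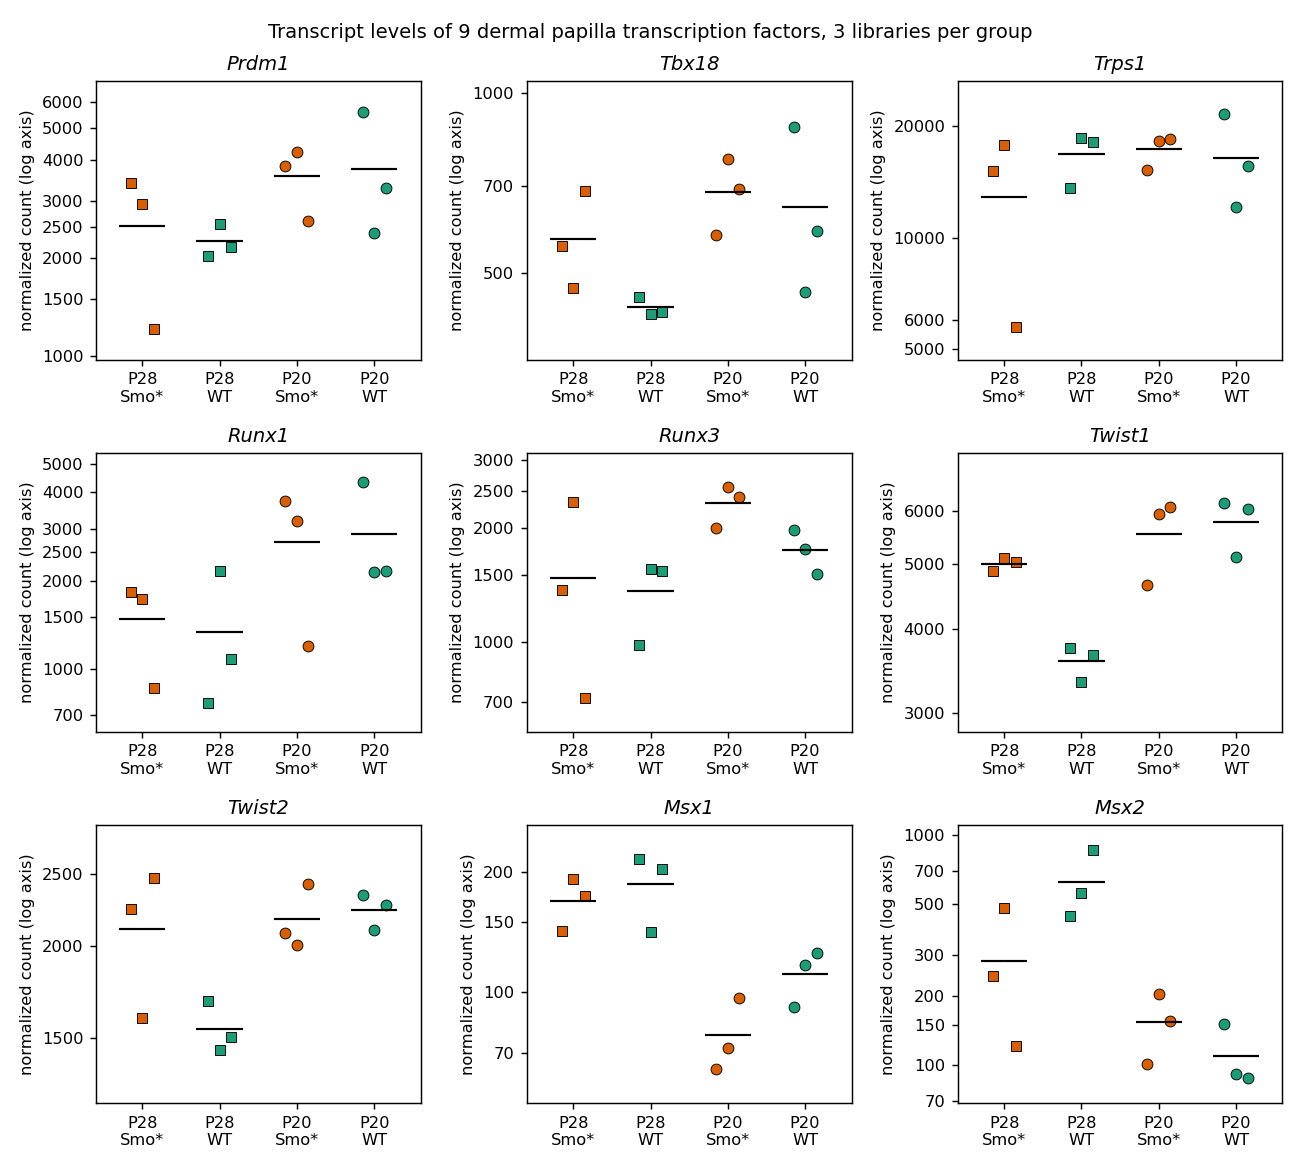
Normalized counts (log axis) of the 9 genes in each of the 12 libraries, with squares for P28, circles for P20, orange for Smo*, green for WT and a line at each group's mean of 3 libraries. Twist1 in P28 WT, at 3342 to 3757, lies below every other library, and Msx1 at P28 lies above every P20 library.

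All 9 genes were detected in every library and all passed the filter of a mean of 10 normalized counts. A normalized count is the number of reads on a gene divided by a factor for the library's depth. The fewest reads behind any value were 62, for Msx1 in P20 Smo* replicate 1. Set per kb of exons over all 12 libraries, Twist1 was the most abundant at 3062 normalized counts per kb. It was followed by Trps1 at 1187, Twist2 at 635, Prdm1 at 542, Runx3 at 345, Runx1 at 174, Tbx18 at 124, Msx2 at 89.2 and Msx1 at 44.1. In P28 WT, 97.8% of the 20311 genes with a read and a length lay below Twist1 per kb, and 53.5% lay below Msx1. The steadiest member was Twist2, whose highest library was 1.71 times its lowest, and the most variable was Msx2, with 9.85 times.

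Differences between groups were tested with limma on log2(normalized count + 1), with p-values adjusted by Benjamini-Hochberg over all genes tested. A gene is called where the adjusted p is under 0.05, and folds are on that log2 scale. At P28, 1 of 9 members was called between Smo* and WT, Twist1, which was higher in Smo*. Over all 14757 genes tested 8.9% were called, with 4.05% higher and 4.85% lower. The groups did not overlap for 2 of 9 members, Twist1 and Tbx18, both higher, against 33.4% of all genes, 15.6% higher and 17.8% lower. The median log2 fold of the 9 members was 0.04 and that of all genes tested was -0.01.

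At P20, none of the 9 members was called between Smo* and WT by limma, edgeR, DESeq2 or the authors' deposited table, and 1 had an unadjusted p under 0.05. Of the 14645 genes tested by limma 0.696% were called. The members' adjusted p-values ran between 0.314 and 0.989. Runx3 alone did not overlap between the groups, with higher values in Smo*, against 16.4% of all genes, 8.04% higher and 8.34% lower. The median log2 fold was -0.02 for the members and 0.00 for all genes.

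Between P28 and P20 in WT, 4 of 9 members were called: Twist1 and Twist2 fell, and Msx1 and Msx2 rose. Of 14790 genes tested 25.4% were called, with 13.5% higher and 11.9% lower at P28. The groups did not overlap for 5 members, the same 4 and Tbx18, against 45.1% of all genes, 23.6% higher and 21.6% lower. The members' median was -0.51 and the median of all genes -0.01. In Smo*, Msx1 alone was called between P28 and P20, and it rose, against 3.46% of all genes called, 1.98% higher and 1.47% lower. Msx1 was also the only member whose groups did not overlap in Smo*, against 24.4% of all genes, 12.2% higher and 12.1% lower, and the median log2 fold was -0.26 for the members and 0.00 for all genes.

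**Figure D2:**
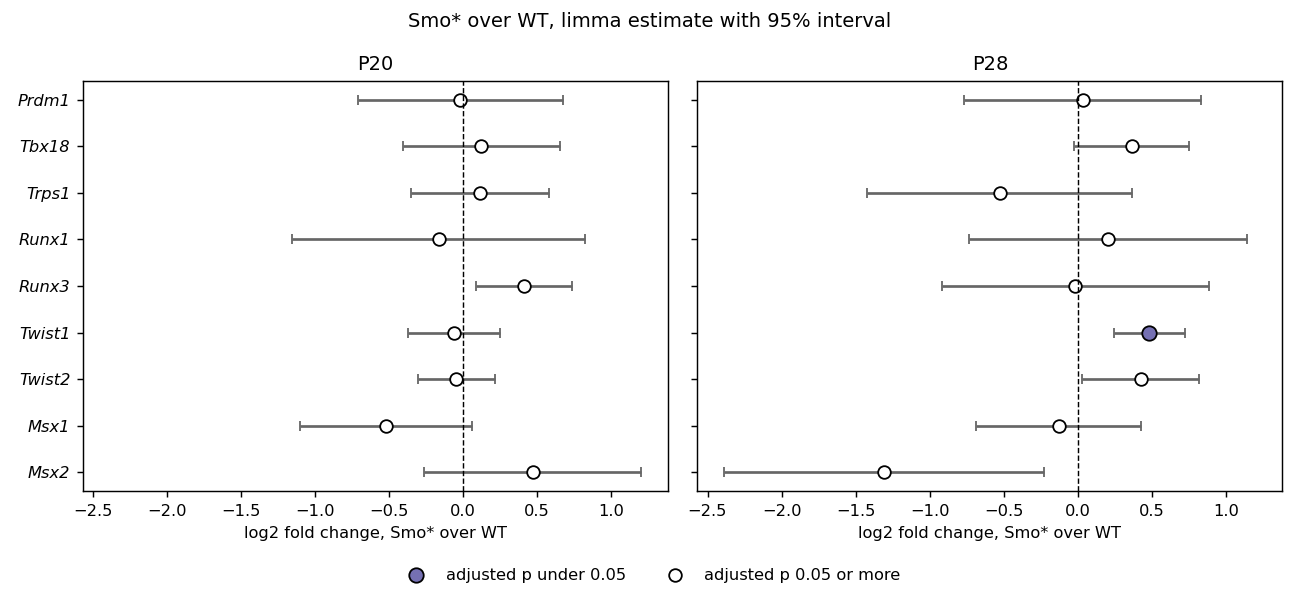
Log2 fold change of Smo* over WT for each member at P20 (left) and P28 (right), as the limma estimate with its 95% interval from 6 libraries, filled where the adjusted p is under 0.05. The one filled point is Twist1 at P28, at 0.48, and the Msx2 interval at P28 is the widest there.

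**Figure D3:**
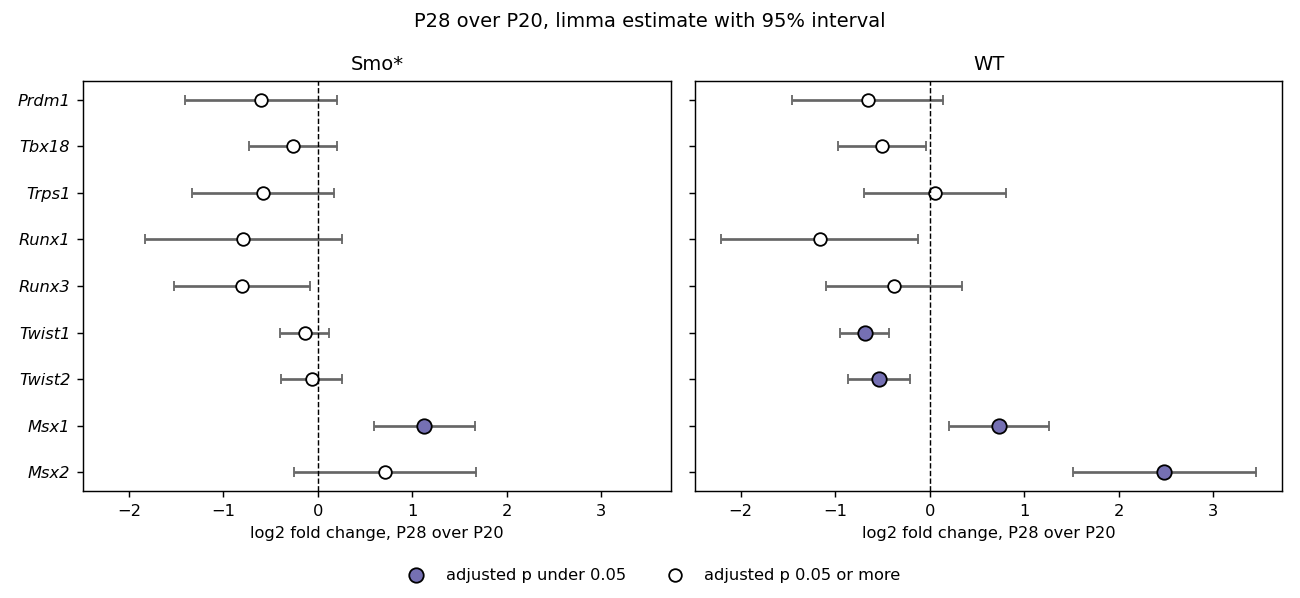
Log2 fold change of P28 over P20 for each member in Smo* (left) and WT (right), as the limma estimate with its 95% interval from 1 fit of 12 libraries, filled where the adjusted p is under 0.05. In WT the 2 Twist genes lie below 0 and the 2 Msx genes above it, and in Smo* the filled point is Msx1 at 1.13.

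Twist1, a regulator of mesenchymal cell identity in the embryo, is a short gene with 2 exon blocks at chr12:33957671-33959829 on the plus strand (GRCm38). Its normalized counts were 4883, 5104 and 5042 in P28 Smo*, 3757, 3342 and 3668 in P28 WT, 4655, 5937 and 6083 in P20 Smo* and 6182, 5129 and 6046 in P20 WT. The 3 P28 WT libraries were the lowest of the 12 and overlapped with no other group. In the order of group means, P20 WT with 5786, P20 Smo* with 5558 and P28 Smo* with 5010 overlapped with their neighbours, and P28 WT with 3589 did not.

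At P28, Twist1 was higher in Smo* than in WT by 0.48 (SE 0.10, 95% interval 0.24 to 0.72, limma adjusted p = 0.0273), a fold of 1.40, and each of the 3 Smo* libraries exceeded each WT library. The authors' deposited table gives 0.47 with an adjusted p of 0.00462, once its sign, WT over Smo*, is turned. The call remained without P28 Smo* replicate 3 (0.48, adjusted p = 0.0342). It was lost without P28 Smo* replicate 1 (adjusted p = 0.0578) or 2 (0.0704), and without P28 WT replicate 1 (0.0637), 2 (0.109) or 3 (0.102), while the fold stayed between 0.43 and 0.52. At P20 the estimate was -0.06 (95% interval -0.38 to 0.25, limma adjusted p = 0.912), and it was 0.05 after scaling without mitochondrial and the 10 most abundant genes. The Smo* effect at P28 minus that at P20 was 0.55 (SE 0.17, 95% interval 0.18 to 0.91, limma adjusted p = 0.0845), which did not pass. None of the 9 members passed that test by limma or edgeR, 3 had an unadjusted p under 0.05, and 4.72% of all genes passed it, 1.89% with a positive and 2.83% with a negative difference. DESeq2 called Twist1 there, with an adjusted p of 0.0399. Without P28 Smo* replicate 3 the limma difference was 0.54 (adjusted p = 0.109).

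For Twist1, P28 WT over P20 WT was -0.69 (SE 0.12, 95% interval -0.94 to -0.43, limma adjusted p = 0.00151), a fold of 0.622. This call remained when any 1 of the 6 WT libraries was left out, with log2 folds of -0.77 to -0.64. In Smo*, P28 over P20 was -0.14 (95% interval -0.40 to 0.12, limma adjusted p = 0.513), and -0.14 (adjusted p = 0.544) without P28 Smo* replicate 3.

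Twist2, also called Dermo1, is the relative of Twist1 found in dermal fibroblasts, at chr1:91801461-91848028 on the plus strand. Its normalized counts were 2245, 1600 and 2468 in P28 Smo*, 1682, 1447 and 1504 in P28 WT, 2082, 2008 and 2425 in P20 Smo* and 2345, 2098 and 2271 in P20 WT. P28 Smo* replicate 2 lay within the P28 WT range and the other Smo* libraries lay above it, so these groups overlapped. P28 WT lay wholly below P20 WT. The annotated antisense gene Gm29100 shares 1477 exon bases with Twist2. The sources used here do not say if the reads were counted by strand, and reads of this pair may not be separated.

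P28 WT over P20 WT was -0.54 for Twist2 (SE 0.15, 95% interval -0.86 to -0.21, limma adjusted p = 0.0200), a fold of 0.690. That call was lost without P20 WT replicate 1 (adjusted p = 0.0615) or 3 (0.0599) and without P28 WT replicate 2 (0.0672) or 3 (0.0668). In Smo* the same contrast was -0.06 (95% interval -0.39 to 0.26, adjusted p = 0.833), and -0.19 (limma adjusted p = 0.457) without P28 Smo* replicate 3. Smo* over WT at P28 was 0.43 (95% interval 0.03 to 0.82, limma adjusted p = 0.164), and 0.30 (adjusted p = 0.295) without P28 Smo* replicate 3. Without P28 Smo* replicate 2 it was 0.61 and passed (adjusted p = 0.0394), and the difference of the Smo* effect between ages then passed too (0.66, adjusted p = 0.0409, against 0.47 and 0.217 with all libraries). Without replicate 3 that difference was 0.34 (limma adjusted p = 0.347). At P20 it was -0.05 (95% interval -0.31 to 0.21), and 0.07 after scaling without mitochondrial and the 10 most abundant genes.

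**Figure D4:**
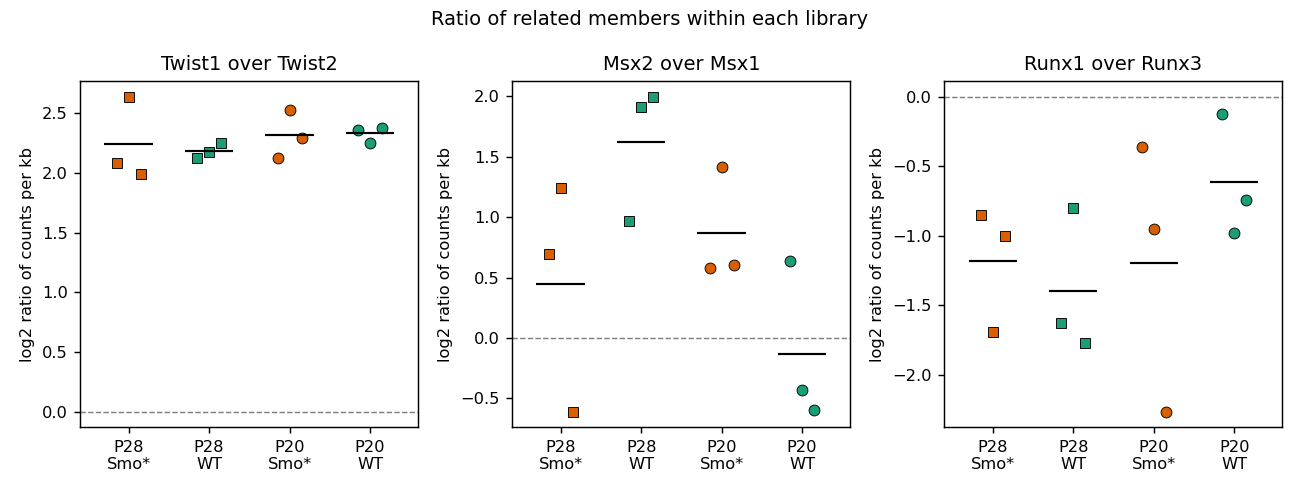
Log2 ratio of normalized counts per kb of exons between related members within each library, with squares for P28, circles for P20, orange for Smo*, green for WT and a line at each group's mean. The ratio of Msx2 to Msx1 is above 0 in all P28 WT libraries and below 0 in 2 of 3 P20 WT libraries.

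Per kb of exons, Twist1 exceeded Twist2 in every library, by 3.98 to 6.22 times. The log2 ratio averaged 2.18 in P28 WT and 2.33 in P20 WT and these did not overlap (two-sided exact permutation p = 0.1, the smallest that 3 against 3 libraries allow). In the other contrasts the ratio overlapped, with group means of 2.24 in P28 Smo* and 2.31 in P20 Smo*.

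Msx1 is a homeobox repressor of craniofacial and limb mesenchyme at chr5:37820485-37824583 on the minus strand, with 2 exon blocks. It had 142, 193 and 174 normalized counts in P28 Smo*, 216, 141 and 204 in P28 WT, 64.0, 72.3 and 96.7 in P20 Smo* and 91.6, 117 and 125 in P20 WT. Every P28 library was higher than every P20 library. Within an age the genotypes overlapped.

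Msx1 rose by 1.13 between P28 and P20 in Smo* (SE 0.24, 95% interval 0.60 to 1.66, limma adjusted p = 0.0332), a fold of 2.19. In WT it rose by 0.74 (SE 0.24, 95% interval 0.20 to 1.27, limma adjusted p = 0.0436), a fold of 1.67. Both calls lie close to the threshold. In Smo*, the call was lost with no filter on low genes (adjusted p = 0.0506), without P20 Smo* replicate 1 (0.0935), 2 (0.0654) or 3 (0.0560), and without P28 Smo* replicate 1 (0.0679) or 2 (0.0810), but not without replicate 3 (1.10, adjusted p = 0.0361).

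In WT, the Msx1 call was lost with no filter (adjusted p = 0.0741) and after scaling without mitochondrial and the 10 most abundant genes (0.0530). It was also lost without P20 WT replicate 1 (0.141), 2 (0.0842) or 3 (0.0622) and without P28 WT replicate 1 (0.139) or 3 (0.143). The fold stayed positive in all of these fits. Smo* over WT was -0.13 at P28 (95% interval -0.69 to 0.43, limma adjusted p = 0.774), -0.15 (0.765) there without P28 Smo* replicate 3, and -0.52 at P20 (95% interval -1.10 to 0.06, adjusted p = 0.5003).

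Msx2, the second Msx gene, is known for its part in hair shaft maintenance, where the follicle epithelium also makes it. It lies at chr13:53466884-53473074 on the minus strand. Its normalized counts were 244, 483 and 121 in P28 Smo*, 446, 563 and 864 in P28 WT, 101, 204 and 156 in P20 Smo* and 150, 91.6 and 87.7 in P20 WT. All P28 WT libraries exceeded all P20 libraries. The P28 Smo* libraries were spread widely, with replicate 2 inside the P28 WT range and replicate 3 inside the P20 range.

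P28 WT over P20 WT was 2.49 for Msx2 (SE 0.44, 95% interval 1.52 to 3.45, limma adjusted p = 0.00185), a fold of 5.60. The call remained when any 1 of the 6 WT libraries was left out, with log2 folds of 2.22 to 2.73. In Smo* the contrast was 0.71 (95% interval -0.26 to 1.68, limma adjusted p = 0.368), and 1.21 (adjusted p = 0.0852) without P28 Smo* replicate 3.

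At P28, Msx2 in Smo* over WT was -1.31 (SE 0.47, 95% interval -2.39 to -0.23, limma adjusted p = 0.127), which did not pass. The authors' deposited table gives -0.96 after turning its sign, with an adjusted p of 0.0405. Without P28 Smo* replicate 2 it was -1.80 and passed (adjusted p = 0.0298), and without replicate 3 it was -0.81 (adjusted p = 0.187). At P20 the estimate was 0.47 (95% interval -0.27 to 1.203, limma adjusted p = 0.644). The Smo* effect at P28 minus that at P20 was -1.77 (95% interval -3.14 to -0.41, adjusted p = 0.126), -2.27 (adjusted p = 0.0322) without P28 Smo* replicate 2 and -1.28 (0.187) without replicate 3.

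The summed level of 15 keratinocyte markers was 2260 to 3319 normalized counts in P28 Smo*, 1404 to 1678 in P28 WT, 1251 to 2528 in P20 Smo* and 794 to 2795 in P20 WT. Most of the P28 Smo* sum was Itgb4, an integrin subunit also made outside keratinocytes, at a mean of 2438 in P28 Smo* and 375 in P28 WT. Of the 13 markers tested at P28, 12 were lower in Smo* by estimate, with a median log2 fold of -1.04. Of these 13, 1 was called higher, Itgb4, and 1 lower, Krt71, against 8.9% of all genes called. Krt5, a basal keratin, averaged 52.7 in P28 Smo* and 178 in P28 WT, and its partner Krt14 averaged 20.1 in P28 Smo* and 64.4 in P28 WT. The P28 WT range of the sum lies within the P20 WT range, and none of the 15 was at 0 in every library. The sum does not stand for each marker, as Itgb4 averaged 375 in P28 WT and 626 in P20 WT. For P28 over P20 in WT, 7 of 12 markers tested were above 0 by estimate and 5 below, with a median of 0.29. Of these 12, 2 were called higher at P28 and none lower. Krt71 averaged 27.97 in P28 WT and 1.04 in P20 WT, and Krt17 averaged 45.51 in P28 WT and 2.595 in P20 WT. Of the 15 markers, 12 averaged at least 10 normalized counts in P28 WT and 10 in P20 WT. Within P28 Smo*, Msx2 and the dermal papilla marker sum had the same order of libraries, with replicate 2 the highest and replicate 3 the lowest. Runx3, Trps1 and the Hedgehog target Ptch1 had that order too, so it is not particular to Msx2. The part of these sums and marker genes in the Msx2 result was not tested.

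Per kb, the ratio of Msx2 to Msx1 was 1.62, 2.37 and 0.655 in P28 Smo*, 1.95, 3.76 and 3.99 in P28 WT, 1.49, 2.66 and 1.52 in P20 Smo* and 1.55, 0.742 and 0.661 in P20 WT. The mean log2 ratio was 1.62 in P28 WT and -0.13 in P20 WT, a fold of 3.38 without overlap (two-sided exact permutation p = 0.1, the smallest possible). In Smo* the P28 and P20 ratios overlapped.

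Runx3 is a runt-domain factor known in mice for a part in hair shape, at chr4:135120652-135177990 on the plus strand. It had 1373, 2334 and 716 normalized counts in P28 Smo*, 987, 1561 and 1540 in P28 WT, 1992, 2561 and 2400 in P20 Smo* and 1966, 1755 and 1507 in P20 WT. At P20 every Smo* library was above every WT library, by a margin of 1992 against 1966 at the closest. At P28 the Smo* libraries spanned the whole WT range on both sides.

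Smo* over WT at P20 was 0.41 for Runx3 (SE 0.14, 95% interval 0.09 to 0.74, unadjusted p = 0.0188, limma adjusted p = 0.314), and did not pass. At P28 it was -0.02 (95% interval -0.92 to 0.89), and 0.42 (adjusted p = 0.365) without P28 Smo* replicate 3. It was 0.12 by edgeR and by DESeq2 and 0.10 in the authors' deposited table with the sign turned. P28 over P20 was -0.81 in Smo* (95% interval -1.52 to -0.09, limma adjusted p = 0.173), -0.36 without P28 Smo* replicate 3, and -1.22 without replicate 2, when it passed (adjusted p = 0.0484). In WT it was -0.38 (95% interval -1.09 to 0.34).

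Runx1, a runt-domain factor of blood and follicle development, lies at chr16:92601466-92826149 on the minus strand. It had 1831, 1738 and 860 normalized counts in P28 Smo*, 769, 2150 and 1083 in P28 WT, 3720, 3183 and 1199 in P20 Smo* and 4339, 2141 and 2163 in P20 WT. The groups overlapped in every contrast, and the group means ran in the order P20 WT 2881, P20 Smo* 2701, P28 Smo* 1477 and P28 WT 1334, each overlapping with the next. P28 over P20 was -1.16 in WT (95% interval -2.20 to -0.12, limma adjusted p = 0.0963). Without P28 WT replicate 2 it was -1.57 and passed (adjusted p = 0.0433).

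P28 over P20 for Runx1 in Smo* was -0.79 (95% interval -1.83 to 0.25), -0.44 (limma adjusted p = 0.630) without P28 Smo* replicate 3, and -1.30 (0.178) without P20 Smo* replicate 3. Smo* over WT was 0.20 at P28 (95% interval -0.73 to 1.14), 0.55 (limma adjusted p = 0.383) without P28 Smo* replicate 3, 0.62 (0.383) without P28 WT replicate 2, and -0.17 at P20 (95% interval -1.16 to 0.82). Per kb, Runx1 was below Runx3 in every library, at 0.208 to 0.918 of its level.

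Tbx18, a T-box factor that marks papilla precursors in the embryo, lies at chr9:87702800-87731260 on the minus strand. Its normalized counts were 555, 472 and 687 in P28 Smo*, 457, 428 and 432 in P28 WT, 580, 776 and 693 in P20 Smo* and 879, 466 and 590 in P20 WT. P28 WT was the lowest group and overlapped with neither P28 Smo* nor P20 WT. The annotated transcript D030062O11Rik shares 970 exon bases with Tbx18 on the opposite strand and may share its reads.

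Smo* over WT for Tbx18 at P28 was 0.36 (SE 0.17, 95% interval -0.02 to 0.75, limma adjusted p = 0.214), and 0.22 (adjusted p = 0.397) without P28 Smo* replicate 3. At P20 it was 0.12 (95% interval -0.41 to 0.65). P28 over P20 was -0.51 in WT (95% interval -0.97 to -0.04, limma adjusted p = 0.104) and -0.26 in Smo* (95% interval -0.73 to 0.20), and -0.40 (limma adjusted p = 0.299) in Smo* without P28 Smo* replicate 3. Without P20 WT replicate 2 the WT value was -0.71 and passed (adjusted p = 0.0360), and without P20 WT replicate 1 it was -0.26 (limma adjusted p = 0.371).

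Prdm1, also called Blimp1, is a zinc finger repressor that marks the papilla of developing follicles, at chr10:44437177-44528501 on the minus strand. It had 3403, 2930 and 1212 normalized counts in P28 Smo*, 2037, 2551 and 2161 in P28 WT, 3839, 4236 and 2600 in P20 Smo* and 5619, 2392 and 3276 in P20 WT. Every contrast overlapped. The lowest of the 12 libraries was P28 Smo* replicate 3 and the highest P20 WT replicate 1.

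For Prdm1, Smo* over WT was 0.04 at P28 (95% interval -0.77 to 0.84), and 0.50 (limma adjusted p = 0.0624) without P28 Smo* replicate 3. At P20 it was -0.02 (95% interval -0.71 to 0.67), and 0.09 after scaling without mitochondrial and the 10 most abundant genes. P28 over P20 was -0.60 in Smo* (95% interval -1.40 to 0.20) and -0.66 in WT (95% interval -1.46 to 0.15, limma adjusted p = 0.219). The Smo* value was -0.14 (limma adjusted p = 0.813) without P28 Smo* replicate 3, and the WT value -0.32 (0.584) without P20 WT replicate 1, the lowest and the highest library.

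Trps1, a GATA-type zinc finger repressor that is mutated in a human syndrome with sparse hair, lies at chr15:50654752-50890463 on the minus strand. Its normalized counts were 15151, 17795 and 5749 in P28 Smo*, 13661, 18633 and 18192 in P28 WT, 15253, 18266 and 18534 in P20 Smo* and 21599, 12114 and 15602 in P20 WT. P28 Smo* replicate 3 was the lowest library, and the other 11 lay between 12114 and 21599. Smo* over WT at P28 was -0.53 (95% interval -1.42 to 0.37, limma adjusted p = 0.422), and -0.02 without that library. At P20 it was 0.11 (95% interval -0.35 to 0.58). P28 over P20 was -0.58 in Smo* (95% interval -1.33 to 0.17), -0.07 without that library, and 0.06 in WT (95% interval -0.69 to 0.81).

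Within groups, the members split by library. P28 Smo* replicate 3 was the lowest of its group for 5 of 9 members (Prdm1, Trps1, Runx1, Runx3 and Msx2), by 0.70 to 1.01 below the group mean on the log2 scale. It was the highest for Tbx18 and Twist2. P20 WT replicate 1 was the highest of its group for 8 of 9 members, all but Msx1. P20 WT replicate 2 was the lowest for 6. The part of these library differences in the results above was not tested beyond leaving each library out.

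**Figure D5:**
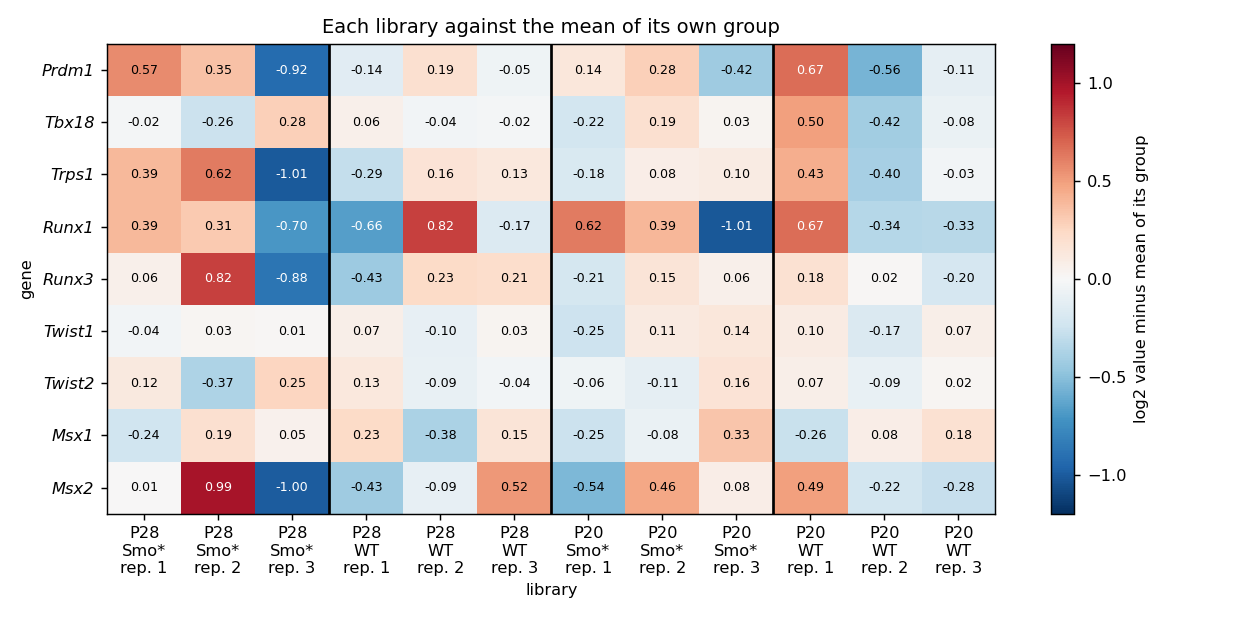
Log2(normalized count + 1) of each member in each library minus the mean of that library's group, in colour and in digits. The lowest values of P28 Smo* replicate 3 are in Prdm1, Trps1, Runx1, Runx3 and Msx2, and Twist1 stays within 0.25 of its group mean in every library.

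After the group means were removed, Runx3 and Msx2 had a Pearson r of 0.92 over the 12 libraries. Trps1 and Runx3 had 0.88 and Trps1 and Msx2 0.86. The largest deviations of these genes were in P28 Smo* replicates 2 and 3, so these r lean on those libraries. They were 0.82 and -0.88 for Runx3, 0.99 and -0.998 for Msx2, and 0.62 and -1.01 for Trps1. Prdm1 went with Trps1 at 0.85 and with Runx1 at 0.81. Runx1 and Msx1 ran opposite at -0.85, as did Runx3 and Twist2 at -0.79. The genes of a pair share library and depth, so these are descriptions of these libraries. By the correlation of log2 values over all 12 libraries, among 11999 genes averaging at least 50, the gene most like each member was Zcchc18 for Msx2 (r 0.97), Fgd5 for Twist1 (0.96), Ddx28 for Tbx18 (0.95), Kptn for Runx3 (0.95), Mat2a for Twist2 (0.94), Matr3 for Trps1 (0.94), Rps6ka1 for Prdm1 (0.94), Susd2 for Msx1 (0.93) and Ttpal for Runx1 (0.90). Each was picked as the highest of 11999 correlations, so a high r is no evidence of a link. After the group means were removed, these r ran from 0.78 for Fgd5 with Twist1 to 0.98 for Zcchc18 with Msx2. Without that removal, the next genes in likeness were Tceal1 and Morn4 for Msx2 (both 0.97) and Wdr33 and Mocs3 for Twist1 (both 0.95).

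Of 35 other Runx, T-box, Msx-related, Twist-related, Prdm and GATA genes, 24 were tested at P28 and 22 at P20. At P28, 1 was called higher and 1 lower, with a median of 0.27, against 8.9% of all genes called. At P20, 1 was called higher and none lower, with a median of -0.07, against 0.696% of all genes. Prdm4 was higher in Smo* at P28 by 0.89 (limma adjusted p = 0.00696), averaging 866 ± 87.2 normalized counts in Smo* and 465 ± 18.5 in WT (SD, n = 3 libraries each). Tbx5, a T-box factor of the forelimb and heart, was lower at P28 by 1.11 (log2 fold -1.11, adjusted p = 0.0220), at 179 ± 41.5 in Smo* and 384 ± 58.2 in WT.

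Runx2, the bone relative of Runx1 and Runx3, was higher in Smo* at P20 by 1.02 (limma adjusted p = 0.0325), at 1349 ± 224 normalized counts in Smo* and 662 ± 77.4 in WT (SD, n = 3 libraries each). Its call was lost without P20 Smo* replicate 1 (adjusted p = 0.0518) or 2 (0.107) and without P20 WT replicate 1 (0.0595), 2 (0.140) or 3 (0.0860). That of Tbx5 was lost without P28 Smo* replicate 1 (0.0577) and without P28 WT replicate 1 (0.0508), 2 (0.0826) or 3 (0.104). The call of Prdm4 remained without any 1 library. Mecom (2.02, adjusted p = 0.0701) and Prdm6 (1.12, 0.0877) at P28 and Tbx1 (-0.80, 0.418), Gata6 (-0.55, 0.493) and Prdm8 (-0.31, 0.517) at P20 came next and did not pass. At P28, Mecom and Prdm6 passed by DESeq2 (adjusted p = 0.0146 and 0.0227), by limma over all 12 libraries (0.0227 and 0.0230) and in the authors' deposited table (0.00236 and 0.00226).

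Among 22 tested partners and cofactors of the members, 4 were called higher and 2 lower at P28, with a median of 0.20. Over all genes, 4.05% were called higher and 4.85% lower there. At P20 limma and edgeR called none, DESeq2 called 1 and so did the authors' deposited table; 4 had an unadjusted p under 0.05 and the median was 0.05. Runx1t1, a corepressor of the ETO family, was higher at P28 by 0.68 (limma adjusted p = 0.00918), at 2424 ± 35.0 normalized counts in Smo* and 1515 ± 121 in WT (SD, n = 3 libraries each). Ctbp2 rose by 0.96 (adjusted p = 0.0179) and Tle3 by 0.66 (0.0191), while Tle4 fell by 1.44 (log2 fold -1.44, 0.0391). These last are corepressors that DNA-binding factors recruit.

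The Runx1t1 call remained without any 1 library. The calls of Ctbp2, Tle3 and Tle4 were each lost without P28 Smo* replicate 1 (adjusted p = 0.0572, 0.0508 and 0.0606), P28 WT replicate 1 (0.0578, 0.0582 and 0.0662), replicate 2 (0.0802, 0.0585 and 0.137) or replicate 3 (0.0603, 0.0915 and 0.141). At P20 the smallest adjusted p-values were those of Runx1t1 (0.60, adjusted p = 0.139), Tle1 (-0.43, 0.243), Tle2 (0.47, 0.314) and Cbfa2t3 (-0.68, 0.413). Tle1 was called lower at P28 (log2 fold -0.47, limma adjusted p = 0.0441), where its groups did not overlap. The Runx1t1 estimate at P20 passed by DESeq2 (0.0213) and in the authors' deposited table (0.00542), and that of Cbfa2t3 ranged up to -1.05 and passed without P20 Smo* replicate 3 (0.0250).

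Of 38 tested other transcription factors of follicle mesenchyme, 3 were called higher and 7 lower at P28, with a median of -0.15. Over all genes, 4.05% were called higher and 4.85% lower there. At P20, 3 were called higher and none lower, with a median of 0.08, against 0.696% of all genes called. Nr2f2, an orphan nuclear receptor, was higher in Smo* at both ages, by 1.18 at P28 (limma adjusted p = 0.00569) and by 1.19 at P20 (0.0193). It averaged 3169 ± 532 normalized counts in P28 Smo* and 1395 ± 231 in P28 WT, with 2235 ± 121 in P20 Smo* and 994 ± 189 in P20 WT (SD, n = 3 libraries each). The P20 call of Nr2f2 was lost without P20 Smo* replicate 2 (adjusted p = 0.0942) or P20 WT replicate 2 (0.0783).

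Zic1 fell by 1.94 (log2 fold -1.94, limma adjusted p = 0.00212) and Lef1, a nuclear partner of beta-catenin, by 1.99 (log2 fold -1.99, 0.00933) at P28, while Heyl, a Notch target, rose by 1.09 (0.00649). The Lef1 call was lost without P28 WT replicate 2 (adjusted p = 0.0522). At P20, Alx4, a homeobox gene of craniofacial mesenchyme, rose by 1.53 (limma adjusted p = 0.0446), and Hey1 at 0.90 did not pass (0.0867), but passed by DESeq2 (0.00208) and in the authors' deposited table (0.0372). The call of Alx4 was lost without P20 Smo* replicate 2 (adjusted p = 0.178) or 3 (0.0642), without P20 WT replicate 1 (0.106), 2 (0.153) or 3 (0.114), and with only genes averaging at least 50 (0.0523).

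Marker lists of other cells stood beside these counts as follows. Of 20 dermal papilla markers, 1 was called higher and 9 lower in Smo* than in WT at P28, with a median of -1.94. Over all genes tested there, 4.05% were called higher and 4.85% lower. Of 7 endothelial markers 3 were called higher, with a summed level of 2055 to 3951 normalized counts in P28 Smo* and 642 to 1119 in P28 WT. The sums for 15 immune markers were 1126 to 1505 in P28 Smo* and 1203 to 1470 in P28 WT, and Cd3g was at 0 in every library. Those for 7 melanocyte markers were 1061 to 1686 in P28 Smo* and 912 to 1533 in P28 WT. Csf1r made up most of the immune sum, at means of 987 in P28 Smo* and 875 in P28 WT. Mitf made up most of the melanocyte sum, at 1118 in P28 Smo* and 1073 in P28 WT. By estimate 2 of 7 immune markers tested were above 0, with a median of -0.42. All 5 melanocyte markers tested were above 0, with a median of 0.05. No marker was called in either list. The sums for 8 dermal fibroblast markers were 193723 to 261696 in P28 Smo* and 116071 to 246265 in P28 WT. Gsn was the largest part of the fibroblast sum, at means of 136040 in P28 Smo* and 80383 in P28 WT. By estimate 5 of the 8 were above 0 and 3 below, with a median of 0.11, and none was called.

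At P20, the fibroblast sums were 143531 to 191536 in Smo* and 211050 to 263430 in WT, without overlap, and those of 9 immediate early genes, which respond to tissue dissociation, were 309203 to 397661 in Smo* and 430376 to 481566 in WT, also without overlap. At P28 the immediate early sums overlapped, at 261696 to 422704 in Smo* and 264371 to 503055 in WT. Those for 7 sheath and smooth muscle markers were 13376 to 17999 in P28 Smo*, 15196 to 18687 in P28 WT, 7070 to 12805 in P20 Smo* and 6398 to 17122 in P20 WT. The sums of 5 skeletal muscle markers reached at most 160 in any library, with Myod1 at 0 in all. The part of these cells in the members' results was not tested.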

How the data were processed

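RNA was sequenced from 12 libraries of sorted dermal papilla cells. Per the submitters' processing notes, Trimmomatic, TopHat2, HTSeq and DESeq2 were used with mm10 and GRCm38.p4; their settings and any use of the strand are not given in the sources used here. The authors deposited, per gene and library, normalized counts (a signal: reads divided by a size factor), with their own log2 fold changes (WT over Smo*), a score (the test statistic) and p-values for P20 and P28. The deposited mean equals the mean of the 12 libraries for 100% of genes, so both tables were normalized together. Whole reads were recovered for 100% of values within 0.01 of a read, giving 36323058 to 48926831 reads per library. The chi-square per gene between libraries of a group was 38.5 to 156, far above sampling noise, and none were merged.

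Limma 3.58.1 (R 4.3.3) with a mean-variance trend was fitted to log2(normalized count + 1) for genes averaging at least 10, over 6 libraries for each age and over all 12 for P28 over P20 and for the difference of the Smo* effect, with Benjamini-Hochberg adjustment over all genes tested and a threshold of 0.05. edgeR 4.0.16 (quasi-likelihood test) and DESeq2 1.42.0 on recovered reads, other scalings, pseudocounts of 0.5 and 5, filters, a joint fit and leaving out each library were alternatives. The fits were run on simulated data in which all genes had a common dispersion, below the spread of some members here. That run does not show how the fits behave at such spreads. Symbols and loci come from GENCODE vM21 on GRCm38, and 98.7% of identifiers had a symbol. Exon length is the union of annotated exons. Promoter sequences come from RefSeq, GRCm38.p6. Named genes were all members, up to 4 genes of each list with the smallest adjusted p in each Smo* against WT comparison, and the genes most like each member; 1 gene that this rule names is not reported here. The members, lists and tests were chosen with earlier results of these data known. The files of both ages were used in full.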

Additional observations from a re-analysis of the deposited data

Results flagged for a closer look

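The Smo* effect differed between P28 and P20 for 5 of the genes named from the lists. The test was limma's test of the difference over 12 libraries, with adjusted p under 0.05, which 4.72% of all 14790 genes tested passed. These genes were named for a small adjusted p for Smo* against WT in the same libraries. That choice can favour a difference between ages, so the count is not independent support. Zic1 had a difference of -2.35 on the log2 scale (SE 0.30, adjusted p = 0.00137), with means of 1634 normalized counts in P28 Smo* and 6107 in P28 WT, and 1767 in P20 Smo* and 1329 in P20 WT. Alx4 had -2.91 (SE 0.43, adjusted p = 0.0035), with 8096 in P28 Smo* and 19831 in P28 WT, and 8297 in P20 Smo* and 2746 in P20 WT. Both remained past the threshold without any 1 of the 12 libraries.

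Prdm4 had 0.87 (SE 0.20, adjusted p = 0.0353), and it missed the threshold without 8 of the 12 libraries in turn, at up to 0.0936. Lef1 had -1.88 (SE 0.48, adjusted p = 0.0457), with 1349 in P28 Smo* and 5052 in P28 WT, and 2656 in P20 Smo* and 3071 in P20 WT. Mecom had 2.92 (SE 0.73, adjusted p = 0.0428), at 39.8 in P28 Smo* and 9.65 in P28 WT, and 14.9 in P20 Smo* and 26.8 in P20 WT. Lef1 and Mecom each missed it without 9 of 12 libraries in turn, at up to 0.109 and 0.106, P28 Smo* replicate 3 among them (0.0594 and 0.0517). With no filter on low genes both missed it (0.0556 and 0.0637), and Lef1 also by edgeR (-1.71, adjusted p = 0.0691).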

How the results depend on the processing

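The members' calls kept their number under TMM scaling, both pseudocounts, a mean of at least 50 and edgeR in all 5 comparisons. Leaving out 1 library, 0 to 2 members were called between Smo* and WT at P28, 0 at P20, 0 to 1 between ages in Smo*, 2 to 4 in WT and 0 to 2 for the difference of the Smo* effect. With no filter, 0 members were called between ages in Smo*. The authors' deposited table called 2 members at P28, and DESeq2 called 1 for the difference. Of all genes, 102 were called at P20 (480 by DESeq2, 342 in the authors' deposited table, 8 to 129 without 1 library), 1313 at P28 (2312 by DESeq2, 2058 in the fit of 12 libraries, 2880 in the authors' deposited table, 461 to 1619 without 1 library), 511 between ages in Smo* (1615 by DESeq2, 827 under scaling without mitochondrial and the 10 most abundant genes, 49 to 1049 without 1 library), 3761 in WT (2336 to 3139 without 1 library) and 698 for the difference (1482 by DESeq2, 254 to 922 without 1 library). That scaling shifts the median of all genes by over 0.1, to 0.12 at P20, -0.10 between ages in Smo* and -0.13 for the difference. Higher and lower calls were then 115 and 28 at P20 against 71 and 31, 248 and 579 between ages in Smo* against 293 and 218, and 216 and 562 for the difference against 279 and 419.

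Signs changed only for members that passed under no setting run for that comparison. Under that scaling the P20 estimates were 0.094 for Prdm1, 0.051 for Twist1 and 0.067 for Twist2, and the difference for Prdm1 was -0.054. For Runx3 at P28 they were 0.12 by edgeR and DESeq2 and 0.10 in the authors' deposited table. Without 1 library, the P20 log2 folds spanned -0.30 to 0.32 for Prdm1, -0.086 to 0.37 for Tbx18, -0.087 to 0.33 for Trps1, -0.48 to 0.34 for Runx1, -0.15 to 0.060 for Twist1 and -0.13 to 0.0074 for Twist2, and at P28 -0.25 to 0.50 for Prdm1, -0.13 to 0.62 for Runx1 and -0.43 to 0.42 for Runx3. Between ages they spanned -0.19 to 0.12 for Twist2 in Smo* and -0.14 to 0.28 for Trps1 in WT, and for the difference -0.28 to 0.52 for Prdm1, -0.0065 to 0.45 for Tbx18, -0.14 to 0.78 for Runx1 and -0.84 to 0.012 for Runx3. The causes were not tested. No paired analysis was possible because the labels give the groups no shared replicate numbers: each title has its own bracketed number, whose meaning is not stated and which was not used. The spread among 3 libraries a group limits Prdm1, Trps1, Runx1, Runx3 and Msx2 most. Their 95% intervals at P28 span more than those of the Twist genes. Relative counting error is larger for Msx1 and Msx2 at P20, with as few as 62 and 88 reads, than for the other members. Its part in the spread of Msx1 and Msx2 was not tested.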
